A study of Mus musculus with 8 samples.

Results

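Myelinated axons of the auditory nerve carry a repeated molecular pattern along their length, and 10 genes that encode its adhesion molecules and scaffolds are described here: Cntn1, Cntnap1, Cntn2, Cntnap2, Nfasc, Nrcam, Ank3, Sptbn4, Gldn and Epb41l3. They were chosen by symbol, as the adhesion and scaffold genes of nodes, paranodes and juxtaparanodes (the rule itself uses no measured value). All 10 were present among the 15035 genes of the table, and all 10 passed the filter on low values that left 14870 genes to test. The values come from bulk RNA sequencing of the auditory nerve of mice aged 21 postnatal days, 1 library per mouse made from both of its cochleas (2 pooled). Wild-type mice gave libraries 1 to 4 and Mef2c heterozygotes, as labelled, gave libraries 5 to 8. Mef2c codes for a transcription factor of the MADS-box family, and the labels name no allele, strain, sex or litter. A value is a normalized count, the reads of a gene divided by a size factor of the library.

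At a node of Ranvier the axon membrane is bare of myelin and packed with sodium channels, which are held there by ankyrin-G and beta-IV spectrin beneath the membrane. On either side, at the paranode, contactin-1 and Caspr on the axon bind the glial form of neurofascin and seal the myelin loops to the axon. Next to it, at the juxtaparanode, contactin-2 and Caspr2 hold Kv1 potassium channels under the myelin. In the auditory nerve the peripheral stretch is myelinated by Schwann cells and the central stretch by oligodendrocytes, and both form these domains, with gliomedin as a Schwann cell product of peripheral nodes.

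The depth of the libraries was estimated at 13363314 to 21507116 counted reads. Mef2c itself had 438.6, 498.4, 508.7 and 402.2 normalized counts in wild-type libraries 1 to 4, and 583.3, 704.9, 735.1 and 649.8 in the libraries labelled heterozygote, 5 to 8. Its transcript was higher, not lower, in every library labelled heterozygote (log2 fold change 0.53, limma-trend adjusted p = 0.186). The values are per gene and do not separate alleles, so they cannot check the label. Every direction below is between the libraries as labelled. Wild-type library 1 was the shallowest and the lowest in most of the genes below, so results that rest on it are also given without it. That library and heterozygote-labelled library 5 were low in Xist (12.0 and 7.6 normalized counts, against 5175.3 to 8615.3 in the other 6).

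Of the 10 node and paranode genes, 9 had a higher mean and 1, Cntn2, a lower mean in the libraries labelled heterozygote, and none passed an adjusted p of 0.05. With limma-trend and Benjamini-Hochberg adjustment over all tested genes the count was 0 of 10, against 0.0807% of all genes (12 of 14870). At an unadjusted p under 0.05 it was 1 of 10, Cntn2, which was lower, against 14.1% of all genes (7.34% lower). With limma-voom on estimated reads (values divided by the estimated worth of 1 read) the adjusted count was also 0. An FDR under 0.05 was given to 0 of the 10 in the authors' deposited table. The genotypes overlapped in all 10 genes, that is 0 without overlap, against 7.26% of all tested genes (3.86% lower). The median log2 fold change of the 10 was 0.25, beside 0.015 over all tested genes. Over all tested genes 52.3% had a higher mean. The 10 genes varied together from library to library, as given below, so their shared direction is not 10 separate observations. In bulk tissue, fewer cells of a type and less RNA per cell cannot be told apart.

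**Figure D1:**
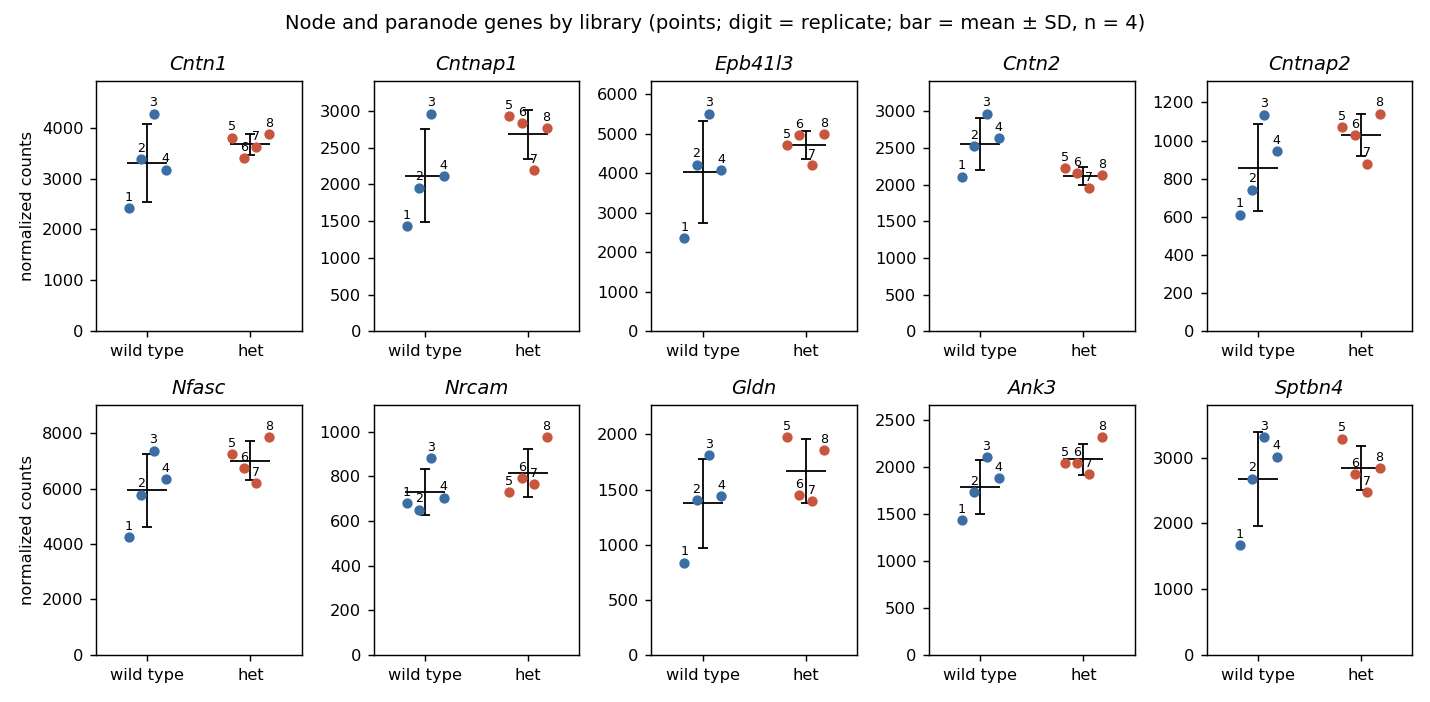
Normalized counts (y axis, from 0) of the 10 genes in each library, with wild type in blue and the libraries labelled heterozygote (het) in red; digits are replicate numbers and bars the mean ± SD (n = 4). Wild-type library 1 is the lowest of all 8 in 8 genes, and Cntn2 is the gene whose mean is lower in the libraries labelled heterozygote.

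The axonal pair of the paranode came first. Cntn1 encodes contactin-1, a membrane-anchored immunoglobulin protein. It had 2415.2, 3385.2, 4276.3 and 3176.6 normalized counts in wild-type libraries 1 to 4, and 3805.1, 3399.8, 3612.2 and 3870.3 in heterozygote-labelled libraries 5 to 8. The 4 libraries labelled heterozygote lay within the wild-type range. For Cntn1 this gave a log2 fold change of 0.18 (standard error, SE, 0.14; limma-trend adjusted p = 0.580), or 0.034 without wild-type library 1. Cntnap1 encodes Caspr, the partner that contactin-1 carries to the axon surface. It had 1434.0, 1957.2, 2964.4 and 2111.3 normalized counts in wild type, and 2936.1, 2832.6, 2193.9 and 2765.9 in the libraries labelled heterozygote. Here 3 of the wild-type libraries lay below every library labelled heterozygote, and wild-type library 3 lay above them all. Its log2 fold change of 0.38 (SE 0.18; limma-trend adjusted p = 0.370) was the largest in size of the 10, with a 95% interval from -0.019 to 0.78, and was 0.21 without wild-type library 1. The body of Cntnap1 overlaps Plekhh3 and Ccr10 on the opposite strand, and whether counting used the strand is not given in the sources used here. Plekhh3 had a log2 fold change of 0.08 and Ccr10 of 0.27.

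Epb41l3 encodes protein 4.1B, which ties the Caspr proteins to the axonal cytoskeleton. It had 2364.6, 4222.8, 5510.9 and 4082.6 normalized counts in wild type and 4712.0, 4959.6, 4204.0 and 4987.1 in the libraries labelled heterozygote. Its wild-type libraries were the most spread of the 10 genes, with a highest value 2.33 times the lowest, against 1.19 times among the libraries labelled heterozygote. Its log2 fold change was 0.28 (SE 0.20; limma-trend adjusted p = 0.528), or 0.044 without wild-type library 1.

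The estimates of the juxtaparanodal pair differed in sign. Cntn2 encodes contactin-2 (TAG-1), which is made by axons and by myelinating glia. It had 2108.9, 2530.5, 2969.0 and 2635.5 normalized counts in wild-type libraries 1 to 4, and 2226.8, 2160.8, 1947.9 and 2128.4 in heterozygote-labelled libraries 5 to 8. Of the wild-type libraries, 3 lay above every library labelled heterozygote, and wild-type library 1 lay among them. Means were 2561 ± 355 and 2116 ± 119 (SD, n = 4 each). This is a fold of 0.831, with a 95% interval from 0.706 to 0.979, or -0.27 on the log2 scale (SE 0.11). The limma-trend unadjusted p was 0.0303 and the adjusted p 0.317, and the two-sided exact permutation p was 0.114. In the authors' deposited table the ratio was 0.826 with an FDR of 0.235. Without wild-type library 1 the log2 fold change was -0.36, and with a correction for transcript length it was -0.46, with limma-trend adjusted p of 0.166 and 0.0621. Without wild-type library 3 the log2 fold change was -0.19. Leaving out any of wild-type libraries 2, 3 and 4 and heterozygote-labelled libraries 7 and 8 gave a limma-trend unadjusted p of 0.0528 to 0.0893. Cntnap2 encodes Caspr2, the axonal partner of contactin-2. It had 611.2, 742.8, 1136.6 and 943.3 normalized counts in wild type, and 1068.8, 1027.3, 879.2 and 1141.1 in the libraries labelled heterozygote. Cntnap2 thus had a log2 fold change of 0.29 (SE 0.17; limma-trend adjusted p = 0.445), or 0.14 without wild-type library 1, in the direction opposite to its partner.

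Cntn2 was then set against each of the 9 other genes within every library, as a ratio of normalized counts, which does not depend on the scaling between libraries. This comparison was chosen after the values had been seen. The ratio of Cntn2 to Cntnap2 was 3.45, 3.41, 2.61 and 2.79 in wild-type libraries 1 to 4, and 2.08, 2.10, 2.22 and 1.87 in heterozygote-labelled libraries 5 to 8. The ratio of Cntn2 to Cntn1 was 0.873, 0.748, 0.694 and 0.830 in wild type, and 0.585, 0.636, 0.539 and 0.550 in the libraries labelled heterozygote. The ratio to Ank3 was 1.40 to 1.47 in wild type and 0.918 to 1.09 in the libraries labelled heterozygote. For all 9 ratios with Cntn2 the highest of the libraries labelled heterozygote lay below the lowest wild-type value, and the mean differences ran from 0.40 to 0.65 on the log2 scale, each lower. None of the 36 ratios among the other 9 genes separated the genotypes. Those 9 genes had estimates of the same sign, so this contrast was partly set by the choice of Cntn2. Over the 45 pairs the smallest two-sided exact permutation p was 0.0286, the least that 4 libraries against 4 can give, and 0.143 after Benjamini-Hochberg adjustment, so no pair passed 0.05. As a background, the ratio to the median of the 9 other genes separated the genotypes for 2.79% of the 14861 genes so compared, Cntn2 among them, and was lower in the libraries labelled heterozygote for 2.58%. All 9 genes of that reference had a higher mean in the libraries labelled heterozygote, which favours lower ratios. With the length correction all 9 ratios still separated the genotypes. The ratios share Cntn2, so they are not 9 separate observations.

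**Figure D2:**
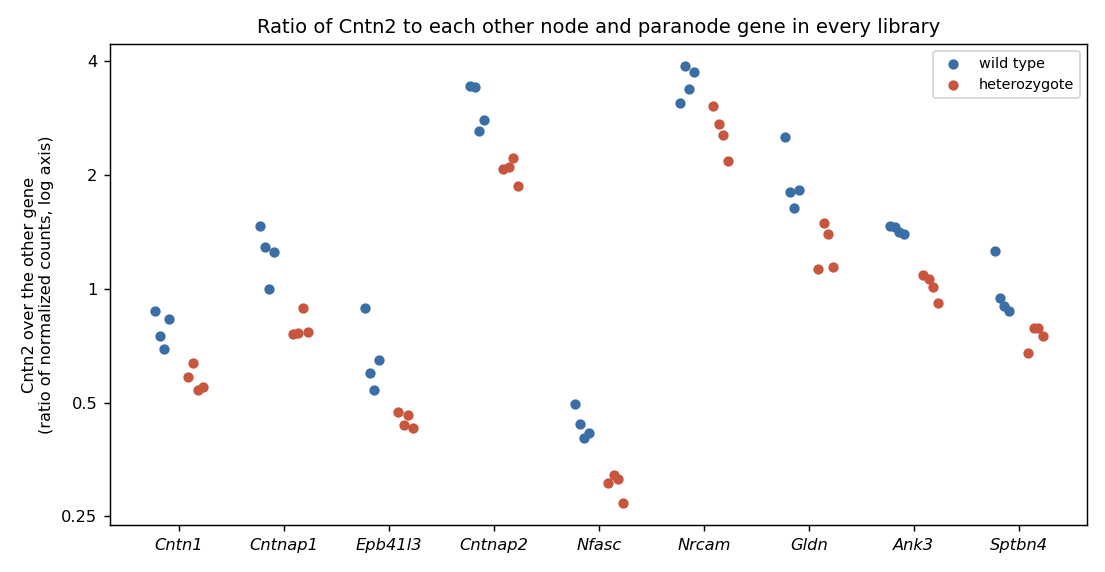
Ratio of Cntn2 to each of the 9 other genes (x axis) in every library, as a ratio of normalized counts on a log axis; blue points are wild-type libraries and red points libraries labelled heterozygote, in replicate order from left to right. In each of the 9 columns the 4 red points lie below the 4 blue points, for example 1.87 to 2.22 against 2.61 to 3.45 for Cntnap2.

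Cntn2 lies beside Nfasc on mouse chromosome 1, both on the minus strand, in GENCODE M21 on mm10: Cntn2 at chr1:132509427-132543256 and Nfasc at chr1:132564690-132741797, with 21.4 kb and no annotated gene between them. Nfasc encodes neurofascin, whose glial form sits at the paranode and whose axonal form sits at the node; the values are per gene and do not separate the forms. It had 4242.4, 5783.2, 7365.0 and 6334.0 normalized counts in wild type, and 7242.7, 6739.0, 6208.3 and 7843.9 in the libraries labelled heterozygote. The groups overlapped, with wild-type library 3 above 3 of the libraries labelled heterozygote. On the log2 scale Nfasc differed by 0.26 (SE 0.15; limma-trend adjusted p = 0.433), or 0.11 without wild-type library 1. The ratio of Cntn2 to its neighbour was 0.403 to 0.497 in wild type and 0.271 to 0.321 in the libraries labelled heterozygote.

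The sequences just before the annotated starts of this neighbouring pair, and of the partner Cntnap2, are shown because Cntn2 differed in sign from both. Each lies within the 250 bases before a RefSeq start (build GRCm38.p6), without the bases that GENCODE M21 places in an exon, and reads 5′ to 3′ on the strand of the gene. Capitals mark a match on either strand to the MEF2 consensus or to the GC box GGGCGG. They cover chr1:132542941-132543028 (minus strand, 88 bases) for Cntn2, chr1:132707407-132707576 (minus strand, 170 bases) for Nfasc and chr6:45059811-45060060 (plus strand, 250 bases) for Cntnap2. All lie inside the gene body that GENCODE M21 annotates, whose ends are farther out than these RefSeq starts.
Cntn2: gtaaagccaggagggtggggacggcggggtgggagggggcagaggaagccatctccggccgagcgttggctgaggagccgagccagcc
Nfasc: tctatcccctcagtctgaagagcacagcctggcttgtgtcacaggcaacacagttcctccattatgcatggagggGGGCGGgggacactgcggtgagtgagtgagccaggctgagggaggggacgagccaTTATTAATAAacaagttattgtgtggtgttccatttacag
Cntnap2: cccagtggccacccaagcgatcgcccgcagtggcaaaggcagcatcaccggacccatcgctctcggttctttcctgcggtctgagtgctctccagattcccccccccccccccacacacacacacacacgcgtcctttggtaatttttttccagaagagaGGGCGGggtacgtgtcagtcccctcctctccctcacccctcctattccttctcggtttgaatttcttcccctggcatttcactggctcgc
RefSeq gave 17 start windows for 8 of the 10 genes, and Ank3 and Cntnap1 had none in that table. Nfasc and Cntnap2 each have a further start window that is not shown. In windows of 300 bases (250 before and 50 after a start), the MEF2 consensus was present in 1 of the 17, the Nfasc window above, where 110 bases lie between it and the start, against 3.19% of 32851 windows of all genes. The GC box was in 10 of 17 windows, which belong to 6 genes, against 35.7% of all windows. Windows of the same gene are not separate observations. TATAAA was in 1 (13.6% of all windows) and the SOX core AACAAT in 2 (10.7%). The 250 bases before the Cntn2 start hold no match to any of these 4 motifs. A match is a description of the letters and not evidence of binding.

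The nodal adhesion genes followed. Nrcam encodes a neurofascin-related adhesion molecule that helps gather sodium channels at peripheral nodes. It had 680.0, 651.3, 881.8 and 705.4 normalized counts in wild type, and 731.0, 792.9, 765.2 and 975.1 in the libraries labelled heterozygote. Wild-type library 1 was not the lowest here, unlike in most of the genes. Nrcam differed by 0.16 on the log2 scale (SE 0.13; limma-trend adjusted p = 0.575). Gldn encodes gliomedin, the Schwann cell ligand of axonal neurofascin and NrCAM. It had 837.1, 1406.8, 1814.9 and 1441.0 normalized counts in wild type, and 1973.7, 1451.6, 1395.7 and 1859.3 in the libraries labelled heterozygote. Libraries 5 and 8 were high and libraries 6 and 7 lay at the level of wild-type libraries 2 and 4. For Gldn the difference was 0.32 on the log2 scale (SE 0.21; limma-trend adjusted p = 0.488), or 0.097 without wild-type library 1.

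The scaffolds were Ank3, for ankyrin-G, which anchors sodium channels, neurofascin and NrCAM, and Sptbn4, for beta-IV spectrin, which ties ankyrin-G to actin. Ank3 had 1432.7, 1732.5, 2110.1 and 1883.1 normalized counts in wild type, and 2047.5, 2047.6, 1929.1 and 2317.8 in the libraries labelled heterozygote. All 4 of the latter lay above 3 wild-type libraries, and wild-type library 3 lay among them. Ank3 differed by 0.23 on the log2 scale (SE 0.12; limma-trend adjusted p = 0.393), with a 95% interval from -0.030 to 0.49, and by 0.13 without wild-type library 1. Sptbn4 had 1667.6, 2678.8, 3306.3 and 3014.8 normalized counts in wild type, and 3287.9, 2748.9, 2478.5 and 2842.8 in the libraries labelled heterozygote. Apart from the low wild-type library 1, the groups overlapped almost wholly. Its log2 fold change, 0.13, was the smallest in size of the 10 (SE 0.18; limma-trend adjusted p = 0.760), and -0.081 without wild-type library 1.

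The levels of the genes can be compared only per length, as normalized counts per kilobase of a gene's longest transcript in GENCODE M21. The median over 8 libraries was highest for Epb41l3, at 1097 per kilobase, followed by Nfasc (671), Cntn1 (618) and Cntnap1 (456). Sptbn4, Gldn and Cntn2 were close to each other, with medians of 319.6, 310.5 and 299 per kilobase. Sptbn4 was above Gldn in 4 of 8 libraries, of both genotypes, so this pair did not differ beyond its spread. The place of Cntn2 in the trio changed with genotype: per kilobase it was above both Gldn and Sptbn4 in all 4 wild-type libraries and below both in all 4 labelled heterozygote. Its mean level was 349 per kilobase against 295 for Gldn in wild type, and 288.5 against 358.5 in the libraries labelled heterozygote, which is the ratio described above on another scale. Ank3 (199.6), Nrcam (119) and Cntnap2 (100.3) were the lowest. The other neighbours kept their order in 8 of 8 libraries, except Nfasc over Cntn1 in 7. Ank3 has 47 annotated transcripts and Cntn2 has 8, and a gene expressed mainly as a short form is placed too low on this scale.

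Within a genotype the 10 genes varied together from library to library. Wild-type library 1 was the lowest of all 8 libraries in 8 of the 10 genes, and the highest was wild-type library 3 in 5 genes and heterozygote-labelled library 8 in 4. After the mean of each genotype was subtracted, the 45 pairwise Pearson correlations over the 8 libraries had a median of 0.907. They ran from 0.341 (Nrcam with Sptbn4) to 0.987. Pairs with Nrcam had a median of 0.576 and the 36 other pairs 0.924. Pairs with Cntn2 had a median of 0.941, so within a genotype it varied with the rest. Without wild-type library 1 the median over all pairs was 0.782 (n = 7 libraries). It was then 0.692 for pairs with Nrcam and 0.797 for the 36 other pairs, so that contrast was smaller. These correlations describe few libraries that share their depth and tissue content, and genes of one library are not independent.

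The coefficient of variation was larger in wild type than in the libraries labelled heterozygote in all 10 genes, at 13.9% to 31.9% against 5.64% to 17.3%. Without wild-type library 1 it was larger in 8 of 10, the exceptions being Sptbn4 and Gldn.

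The genes whose values were most like each of the 10, over 13355 others with a mean of at least 50 normalized counts, were found by the same correlation (n = 8 libraries). Hic2 (0.991) was among the 2 genes closest to Gldn. Cntnap1 was closest to Atp6v0a1 (0.999), for a subunit of the vacuolar proton pump, and Map1b (0.997), for a microtubule-associated protein. Cntn2 was closest to Tro (0.993) and Atp6v0a1 (0.992), and Cntn1 to Oga and Sparcl1 (0.995 each). Cntnap2 was closest to D430041D05Rik (0.992) and Cdh2 (0.991), for N-cadherin, and Nfasc to Ptprs (0.993) and Cdr2l (0.992). Ank3 paired with Bicd1 (0.990) and Btbd3 (0.988), Sptbn4 with 6030458C11Rik (0.993) and Fbxo21 (0.992), Epb41l3 with Eif4g3 (0.995) and Uhmk1 (0.994), and Nrcam with Clvs1 and Elovl6 (0.973 each). Such values are the highest among many genes and are given as a description.

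**Figure D3:**
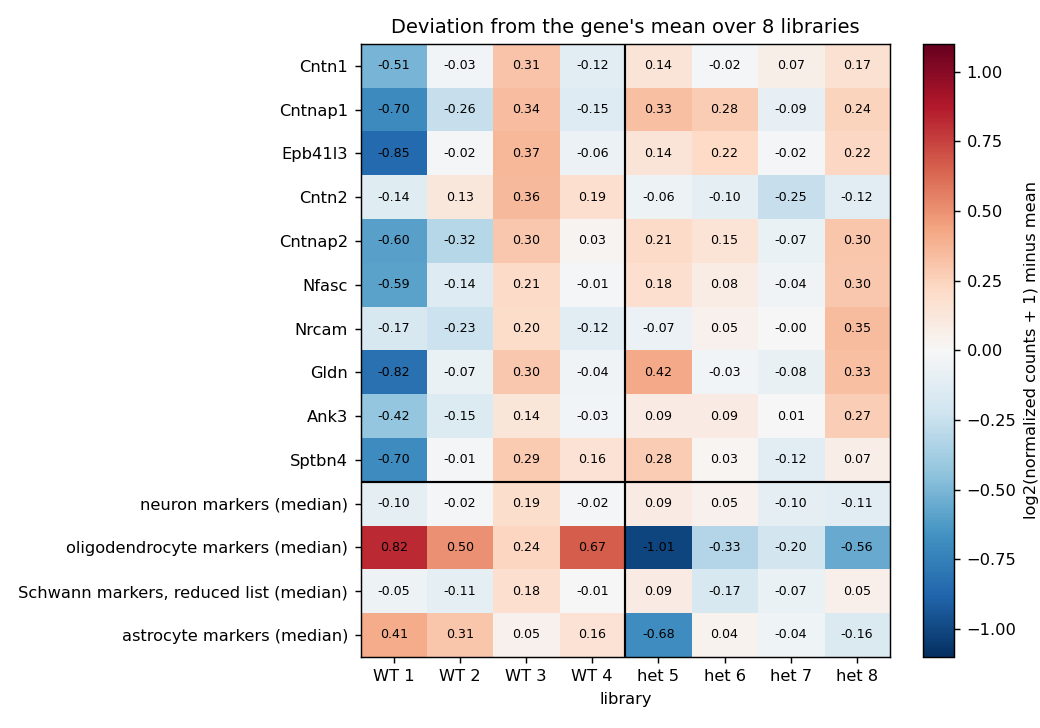
Deviation of each gene from its own mean over the 8 libraries, on the log2(normalized count + 1) scale, for the 10 genes (upper rows) and as medians of 4 marker lists (lower rows), with red above and blue below the mean. The Schwann row leaves out Mbp, Mag, Gjb1 and Mal, the 4 genes of that list without overlap between the genotypes. Wild-type library 1 (WT 1) is low in all 10 genes, from -0.85 in Epb41l3 to -0.14 in Cntn2, and oligodendrocyte markers are high in the 4 wild-type libraries and low in the 4 labelled heterozygote (het).

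Cell type markers were read beside these values. The 14 neuron markers were all detected, with a median log2 fold change of -0.015, 6 higher and 8 lower, and summed levels of 217883 to 290939 normalized counts in wild type and 236950 to 283226 in the libraries labelled heterozygote. Of these, Nefh and Calb2, for neurofilament heavy chain and calretinin, had log2 fold changes of 0.21 and -0.31. The summed oligodendrocyte markers did not overlap between the genotypes, with 12 of 14 lower, 3 of them past the threshold, and sums of 99678 to 136051 against 48331 to 68708 normalized counts. Of those 3, Mobp and Mog, for proteins of central myelin, fell by 1.47 and 1.41 on the log2 scale, with limma-trend adjusted p of 0.0495 and 0.0354. Over the 18 alternatives these limma-trend (in 1 case limma-voom) adjusted p ran from 0.00885 to 0.229 (7 past the threshold) for Mobp and from 0.00947 to 0.229 (15 past the threshold) for Mog, and no gene passed without wild-type library 2, without number 4 or without number 8. The myelinating Schwann cell list had a lower mean in 11 of 14 genes, 1 of them (Mag) past the threshold, with sums of 233629 to 268855 against 177566 to 206292 normalized counts. It includes Mbp and Mag, which oligodendrocytes also make, with log2 fold changes of -0.86 and -0.94. Mbp, Mag, Gjb1 and Mal were the 4 genes of the list in which the genotypes did not overlap. Without these 4 its sums overlapped, at 113456 to 145273 and 105682 to 145204. Taking out the separated genes favours such an overlap, so it does not show that Schwann cell genes were unchanged. In the astrocyte list 6 of 8 genes had a lower mean, none past the threshold, with Gfap at -0.99 and S100b at 0.05. The sums were 44153 to 65687 and 36940 to 59814 normalized counts, of which S100b alone had 21758 to 32839 and 20789 to 39352. The genotypes did not overlap in 3 of the 8, against 7.26% of all tested genes. These were Gfap and, named after their values were seen, Aqp4 (-0.73) and Aldoc (-0.42), all lower. Of the satellite and non-myelinating glia list 7 of 8 genes were tested, 3 higher and 4 lower, with Kcnj10 at -0.09 and Ngfr at 0.08. Fabp7 of that list, named after its values were seen, was at -1.20 without overlap between the genotypes (limma-trend adjusted p 0.110). Fibroblast genes had a higher mean in 5 of 6 (Col1a2 0.44 and Dcn 0.03 on the log2 scale), osteoblast genes in 6 of 6 (Dmp1 0.50, Bglap 0.79) and macrophage genes in 1 of 6 (Csf1r -0.10, C1qa -0.26), and none of these passed. The summed levels of these last 4 lists overlapped between the genotypes, and none of the tested markers was at 0 in any library. For fibroblasts and osteoblasts that overlap rested on wild-type library 1, at 50192 and 9590 normalized counts. Wild-type libraries 2 to 4 had 25060 to 29656 and 2743 to 4611. These lay below every library labelled heterozygote, at 35559 to 50120 and 5720 to 12172. The libraries in which Cntn2 stood low against the other genes were those low in oligodendrocyte markers and in these 3 astrocyte markers. The part of either cell type in the ratio was not tested.

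Transcript length moved with the results too. All 10 genes have a longest transcript above the median of tested genes (3.40 kb), from 4.07 kb in Epb41l3 to 9.96 kb in Ank3. The slope of a library's deviation on the log2 of transcript length was -0.21, -0.029, 0.067 and -0.098 in wild-type libraries 1 to 4, and 0.035, 0.052, 0.035 and 0.15 in heterozygote-labelled libraries 5 to 8. The library with the most negative slope, wild-type library 1, is the one lowest in most of the genes. For fibroblast, osteoblast and macrophage markers its median deviation from the gene means was 0.54, 0.35 and 0.39 on the log2 scale. Wild-type libraries 2 to 4 had -0.47 to -0.24, -0.87 to -0.33 and -0.029 to 0.058. Heterozygote-labelled library 7 was high too, at 0.36, 0.76 and 0.20. The part of tissue content in the low values of wild-type library 1 was not tested. With the trend on length removed from each library, the median log2 fold change of the 10 genes was 0.028, with 7 higher and 3 lower. Ank3 and Sptbn4 then had log2 fold changes of -0.020 and -0.098. Without wild-type library 1 the median was 0.10, with Sptbn4 at -0.081. Leaving out both libraries low in Xist gave 0.069, with Sptbn4 at -0.15. Without wild-type library 3 it was 0.35, and 7 of the 10 genes (Cntn1, Cntnap1, Cntnap2, Nfasc, Ank3, Gldn and Epb41l3) had an unadjusted p under 0.05, all higher, against 23.0% of all genes in that fit, with a lowest limma-trend adjusted p of 0.0684.

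**Figure D4:**
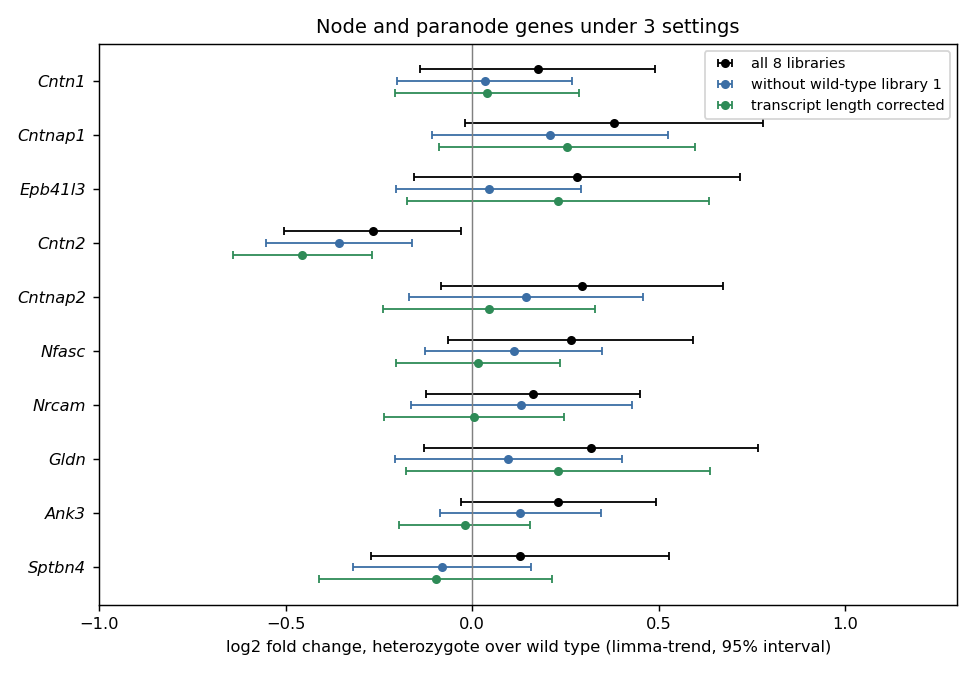
Log2 fold change of heterozygote-labelled over wild-type libraries (x axis) with its limma-trend 95% interval for the 10 genes, with all 8 libraries (black), without wild-type library 1 (blue) and with the correction for transcript length (green). Without wild-type library 1 and with the length correction the estimates of all 10 genes are lower. The 9 other genes thereby move towards 0 or past it, and Cntn2 goes from -0.27 to -0.36 and -0.46.

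A wider list of channel, scaffold, juxtaparanodal, glial, matrix and internodal adhesion genes was read from the same fit. It held 56 genes in 6 partner groups, all of which were tested. In all 1 gene passed an adjusted p of 0.05, Mag, which was lower, and at an unadjusted p under 0.05 there were 19, 11 higher and 8 lower, beside 14.1% of all tested genes (7.34% lower). Of 11 ion channel genes of nodes and juxtaparanodes, 9 had a higher mean and 0 passed, with 3 at an unadjusted p under 0.05. Scn8a, the main nodal sodium channel of adult axons, had 2336.0, 3830.1, 6049.0 and 4041.5 normalized counts in wild type, and 5908.7, 5524.1, 4874.9 and 6163.8 in the libraries labelled heterozygote. Scn8a differed by 0.54 on the log2 scale (limma-trend adjusted p = 0.316), and wild-type library 3 again lay among the libraries labelled heterozygote. Scn1a, another sodium channel, also had 0.54, with an adjusted p of 0.295. Of 11 scaffold genes 10 had a higher mean, and Sptbn1 (beta-II spectrin) and Epb41l1 (protein 4.1N) had log2 fold changes of 0.32 and 0.37, with adjusted p of 0.313 and 0.334. Wild-type library 1 was low in the channel and scaffold groups too. Its median deviation from the gene means was -0.58 and -0.61 on the log2 scale, against -0.25 to 0.31 and -0.087 to 0.19 in wild-type libraries 2 to 4. Fold changes without that library are not given for these groups. The 5 genes of the juxtaparanodal ADAM and LGI group had a median of -0.039, with Adam23 at 0.30 and Adam22 at 0.28.

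The glial and matrix groups were mixed. Among 13 genes of microvilli and paranodal loops, Mag, for myelin-associated glycoprotein, went from 6620 ± 722 to 3466 ± 454 (mean normalized count ± SD, n = 4 each). Mag fell by 0.94 on the log2 scale (SE 0.12; limma-trend adjusted p = 0.0199). Leaving out number 2 or 4 of the wild-type libraries or number 8 of those labelled heterozygote took Mag above the threshold. Gjb1, for the connexin-32 gap junction protein of paranodal loops, had 1127.6 to 1511.9 normalized counts in wild type and 807.1 to 858.8 in the libraries labelled heterozygote. On the log2 scale it differed by -0.63 (limma-trend adjusted p = 0.0627). Of the 8 matrix genes, Hapln2, a link protein of central nodes that is also on the oligodendrocyte list, had a log2 fold change of -1.26 (adjusted p 0.0763) and Bcan, for brevican, -0.45 (adjusted p 0.123). The genotypes did not overlap in either, nor in 2 matrix genes that were higher, Tnc and Hspg2, for tenascin-C and perlecan. These 2, named after their values were seen, had log2 fold changes of 1.09 and 0.44 (limma-trend adjusted p 0.222 and 0.178). Over the 56 partner genes the genotypes did not overlap in 9, 6 lower and 3 higher, against 7.26% of all tested genes (3.86% lower). Of the 8 internodal adhesion genes 6 had a higher mean, with L1cam at 0.43 and Chl1 at 0.53, both without passing (limma-trend adjusted p 0.341 and 0.354). Chl1 was among the genes without overlap, with 99.9 as the highest wild-type value and 100.2 as the lowest in the libraries labelled heterozygote.

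**Figure D5:**
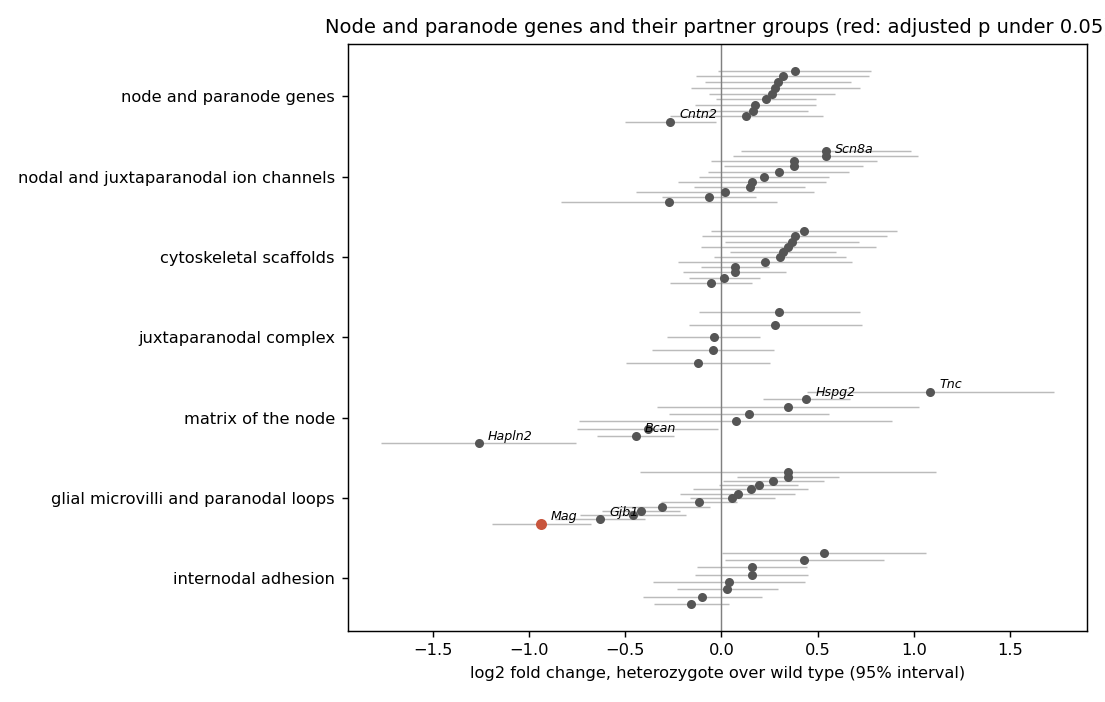
Log2 fold change of heterozygote-labelled over wild-type libraries (x axis) with 95% intervals for the 10 node and paranode genes and the 56 genes of 6 partner groups (rows); red marks an adjusted p under 0.05. With all 8 libraries, including the low wild-type library 1, most channel and scaffold genes lie to the right of 0. Cntn2 lies left of the 9 other node and paranode genes, and Mag at -0.94 is the 1 red point.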

How the data were processed

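According to the submitters' processing notes, the authors used STAR, Partek and DESeq2 with the build mm10; no role or version is stated there, and whether counting used the strand is not given in the sources used here. Per the file headers, the table deposited by the authors holds 1 signal column for every library, and also their p-value, FDR, ratio, log2 ratio and signed fold change, a score left unused. From the values, the signal is a gene's reads divided by a size factor: between 87.34% and 90.71% of low values in a library were whole multiples of 1 step (9.25% to 15.22% by chance), too few to recover counts.

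Tested genes had 10 or more normalized counts in 4 or more of the 8 libraries, which left 14870. They were fitted as log2(value + 1) in limma-trend (limma 3.58.1, R 4.3.3) with genotype alone, p adjusted by Benjamini-Hochberg over all of them, threshold 0.05. A fold change is on that scale, heterozygote-labelled over wild type. Single values had a two-sided exact permutation test (scipy 1.17.1). The longest GENCODE M21 transcript, matched by symbol for 97.6% of genes, gave lengths, and the length correction subtracted a loess trend (span 0.5) from each library. Alternatives were other offsets and filters, upper-quartile and quantile scaling, low Xist, limma-voom, and leaving out libraries. The fit was tested on simulated data.

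Named genes were the 10 members, the genes of each partner group past the threshold and otherwise those with the smallest p up to 2, the 2 most abundant genes of each marker list and up to 2 past the threshold, and for each member its 2 closest genes. Members and lists were chosen with earlier results of these data known. Some genes that this rule names are not reported here.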

Additional observations from a re-analysis of the deposited data

How the results depend on the processing

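The 10 node and paranode genes kept 0 past the threshold under all 18 refits. At an unadjusted p under 0.05 the count was 1 with all 8 libraries, Cntn2. It ran from 0 (leaving out number 2, 4 or 8) to 7 (leaving out number 3) when each library was left out. Without heterozygote-labelled library 7 the 1 gene was Cntnap1. The median log2 fold change of the 10 stayed positive, from 0.028 to 0.35. Directions held in every refit for 8 genes. Sptbn4 was at -0.154 without the 2 libraries low in Xist, -0.098 with the length correction and -0.081 without wild-type library 1 (from -0.081 to 0.248 when each library was left out), and Ank3 was at -0.020 with the length correction. Over all genes 12 passed. The count was 7 with quantile normalization, 31 with the length correction (where 14517 genes had a length) and 2090 at an unadjusted p under 0.05. It ran from 0 (leaving out number 2, 4 or 8) to 221 (leaving out number 3) when each library was left out; the cause was not tested. Of the 56 partner genes 1 passed, 2 with the length correction (Mag and Hapln2), 19 at an unadjusted p under 0.05, and 0 to 6 when each library was left out. The 6, without wild-type library 3, were Scn1a, Bcan, Hapln2, Dag1, Mag and Gjb1. The ratios of Cntn2 to the 9 other genes, a comparison added after seeing the data, were lower by 0.36 to 0.71 on the log2 scale with the length correction and by 0.23 to 0.75 when libraries were left out, where the direction was fixed by the separation of the groups. Isoforms, such as the glial and axonal forms of neurofascin, are not resolved by values per gene. No paired analysis was possible because the genotypes share no replicate numbers.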
